A study of Mus musculus with 12 samples.

Results

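The genes described here encode the nuclear-encoded subunits of the mitochondrial respiratory chain and ATP synthase. They are the protein-coding genes of GENCODE M21, the mouse gene annotation on genome build GRCm38, whose symbols begin with Nduf and a subunit letter and digit, with Uqcr, with Cox4 to Cox8 or with Atp5, together with the 4 Sdh genes, *Cyc1* and *Cycs*. The rule uses no measured value, but the genes were chosen with earlier results of these data known. Of the 55401 gene identifiers measured, 99 carried such a symbol and 87 of these were protein-coding, with 86 distinct symbols. The other 12 were 11 processed pseudogenes and 1 long noncoding RNA. By symbol, 37 genes were assigned to complex I, 4 to complex II, 9 to complex III, 18 to complex IV and 18 to ATP synthase (complex V), and 1 encodes cytochrome c. This puts *Ndufa4* under complex I and *Cox7a2l*, which is not a core subunit, under complex IV. *Ndufab1*, *Usmg5* and *Atpif1*, which also encode proteins of these enzymes, fall outside the symbol rule.

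Whole kidneys came from male C57BL6 mice aged 8 weeks. The 6 control mice received vehicle (15% 2-Hydroxypropyl-beta-cyclodextrin) and the 6 treated mice received SK-124, an inhibitor of the salt-inducible kinases SIK2 and SIK3, at 40 mg/kg, each as a single intraperitoneal injection. No allele or other agent is named for either group, and the interval from injection to collection of the sequenced kidneys was not given in the sources used here. Each mouse gave 1 library, sequenced on the BGISEQ500 platform, and expected counts (reads assigned to a gene by the program RSEM, fractional where a read fits several genes) summed to between 19244227 and 19771802 per mouse. Levels within a mouse are given in TPM, which corrects for transcript length, and differences between mice in TMM-normalized CPM (counts relative to library size after edgeR's scaling). TPM was not used between mice because *mt-Atp8*, for which RSEM used an effective length of only 29.6 bases, by itself took from 95100 to 184000 TPM. The kidney label fits the marker genes measured: proximal tubule markers summed to between 7901 and 9918 CPM, and skeletal muscle markers to at most 0.642 CPM.

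Complexes I and II pass electrons from NADH and succinate to ubiquinone, complex III passes them to cytochrome c, and complex IV passes them to oxygen. Complexes I, III and IV pump protons across the inner membrane, and ATP synthase uses the return flow to make ATP. All but the succinate dehydrogenase complex combine nuclear-encoded subunits with a few encoded by the mitochondrial genome. The proximal tubule and the thick ascending limb, which reabsorb most of the filtered salt, are among the cells of the body with the most mitochondria. In many tissues the nuclear genes are transcribed together, under NRF1, the ETS factor GABP, the estrogen-related receptors and YY1, with PGC-1alpha and PGC-1beta as coactivators. Salt-inducible kinases hold the CREB coactivators of the CRTC family in the cytoplasm, and *Ppargc1a*, which encodes PGC-1alpha, is a known CREB target.

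Subunit transcripts were abundant. They held between 1.02% and 1.37% of all expected counts in a mouse. Of the 87 genes, 82 passed edgeR's expression filter, and the median of their vehicle means was 158 TPM. In vehicle mice 63 exceeded 100 TPM and 3 exceeded 1000 TPM. The highest was *Atp5b*, the catalytic beta subunit of ATP synthase, at 1603 ± 127 TPM (SD, n = 6), followed by *Cox8a*, a small membrane subunit of complex IV, at 1200 ± 104 TPM and *Cox6a1*, a regulatory subunit of the same enzyme, at 1028 ± 64.8 TPM. *Cox6b1* and *Atp5d*, the delta subunit of ATP synthase, came next at 641 ± 53.1 and 565 ± 44.6 TPM. These 5 kept their order in every vehicle mouse. Further down the order was not firm: of the 81 pairs of neighbours in the order of means, 10 stood in the same order in all 6 vehicle mice. *Atp5d* exceeded its lower neighbour *Cox6c*, for example, in only 2 of the 6.

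In complex I the highest levels were those of *Ndufa3* (508 ± 70.1 TPM) and *Ndufa4* (383 ± 32.5 TPM). *Ndufa4* carries a complex I symbol, and its protein is now assigned to complex IV. In complex III they were *Uqcr10* (400 ± 62.2 TPM) and *Uqcrb* (358 ± 32.3 TPM). In complex II, whose 4 subunits are all nuclear-encoded, the cytochrome b anchor subunit *Sdhc* and the iron-sulfur subunit *Sdhb* stood at 176 ± 10.1 and 167 ± 8.79 TPM, above the flavoprotein *Sdha* at 107 ± 9.95 TPM and the second anchor *Sdhd* at 71.1 ± 4.86 TPM. *Cycs*, the cytochrome c of somatic cells, stood at 79.1 ± 9.70 TPM. Only 5 of the tested genes were under 30 TPM. Among these were *Atp5s*, which encodes factor B, an associated protein rather than a core subunit, at 7.67 ± 0.873 TPM, and *Ndufa4l2*, a paralog of *Ndufa4* known to be induced by hypoxia, at 6.59 ± 2.47 TPM. The other 3 were tissue isoforms of complex IV subunits.

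**Figure D1:**
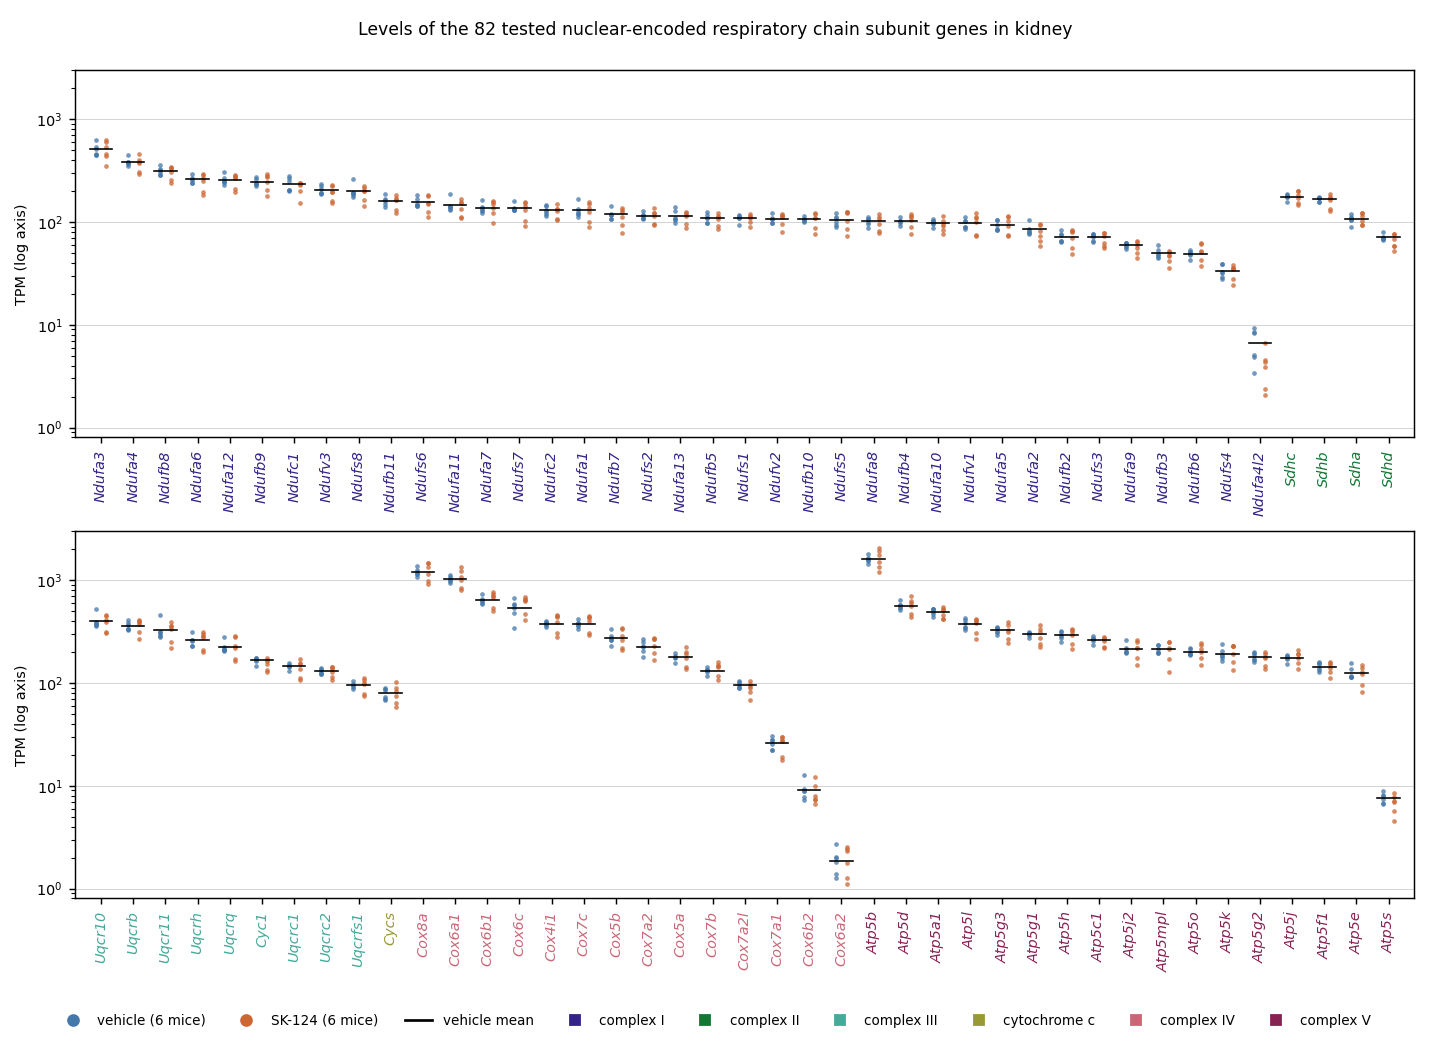
TPM on a log axis for the 82 tested subunit genes, ordered by complex and by vehicle mean; each point is 1 mouse and each bar is the mean of the 6 vehicle mice. *Atp5b* is highest at 1603 TPM, most genes lie near or above 100 TPM, and the isoforms *Cox7a1*, *Cox6b2* and *Cox6a2* lie at 26.1 TPM or less.

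Complex IV holds several subunits that exist as a ubiquitous and a tissue-restricted isoform, and in kidney the ubiquitous one predominated throughout. *Cox7a1*, the heart and muscle isoform, made up 10.6% (median of the vehicle mice, range 9.12% to 11.1%) of the summed TPM of *Cox7a1* and *Cox7a2*, and 9.76% (8.74% to 10.9%) in SK-124 mice. *Cox6b2*, the testis isoform, made up 1.42% of its pair in vehicle mice and 1.3% in SK-124 mice. *Cox6a2*, the heart and muscle isoform, made up 0.182% and 0.168%. *Cox4i2*, the isoform known from lung, stood at 0.583 ± 0.154 CPM in vehicle mice and 0.417 ± 0.104 CPM in SK-124 mice, or 0.276% and 0.173% of its pair; the groups overlapped (two-sided exact permutation test, p = 0.0693, n = 6 per group). No count was assigned in any mouse to *Cox7b2* or *Cox8c*, both testis isoforms. A count of 0 allows up to 3 counts, or between 0.142 and 0.175 CPM depending on the mouse, a limit that covers counting error only.

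*Cox8b*, the muscle and brown fat isoform of the *Cox8* position, differed between mice within both groups. In vehicle mice 1 to 6 its CPM was 0.444, 0.0496, 0.0511, 0.303, 0.380 and 1.75, and in SK-124 mice 1 to 6 it was 0.0579, 0.0585, 1.85, 0.693, 0 and 0.557. Vehicle mouse 6 and SK-124 mouse 3 were the highest of their groups, and the groups overlapped. The same 2 mice were also highest for *Ucp1*, the uncoupling protein of brown fat, with 6.16 and 4.76 CPM against at most 0.889 CPM in the other vehicle mice and 1.98 CPM in the other SK-124 mice. They were highest as well for *Adipoq* (1.85 and 1.51 CPM) and *Plin1* (2.18 and 1.12 CPM), both fat cell genes. The 5 fat markers together summed to between 12.2 and 45.1 CPM in vehicle mice and 15.6 and 40.7 CPM in SK-124 mice, whereas *Ckm* and *Myh4* of the skeletal muscle list were at 0 in all mice. The part of fat in the *Cox8b* values was not tested. In whole tissue, fewer cells of a type and less RNA per cell cannot be told apart.

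The fifth gene that did not pass the filter was a second identifier named *Atp5o* (ENSMUSG00000116933.1), which overlaps the main *Atp5o* gene and neighbouring genes and stood at 0.0158 and 0.0350 CPM in the vehicle and SK-124 means. The c-ring of ATP synthase is built from 1 protein encoded by 3 genes, and their shares of the summed subunit c TPM differed between groups by less than the spread between mice: *Atp5g3* 40.4 ± 1.8% and 40.7 ± 0.95%, *Atp5g1* 37.1 ± 0.61% and 37.3 ± 1.1%, and *Atp5g2* 22.4 ± 1.4% and 22.1 ± 0.62% (SD, n = 6) in vehicle and SK-124 mice. Read assignment was unambiguous for most of the genes. The posterior SD that RSEM gave for the count was 0 in every mouse for 67 of the 87, and among tested genes it was largest for *Ndufb4*, which shares sequence with the pseudogene *Ndufb4c*, itself at 70.4 ± 8.04 CPM in vehicle mice.

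The comparison of SK-124 with vehicle asks whether inhibition of SIK2 and SIK3 changed these transcripts. The subunit genes differed little: 80 of 82 estimates lay above 0, yet 4 genes passed the threshold as higher and 1 as lower (FDR under 0.05, quasi-likelihood test of edgeR, p-values adjusted by Benjamini-Hochberg over 14159 genes). Of all genes tested, 24.4% passed it, 10.8% as higher and 13.5% as lower, and of the subunit genes 4.88% passed as higher and 1.22% as lower. The median log2 fold change was 0.10 over the subunit genes and -0.0050 over all genes tested. Apart from *Ndufa4l2*, estimates ranged from -0.10 to 0.25, with a median standard error of 0.08. The direction of the small shift depended on the scaling. With library totals in place of TMM the median became -0.0033 and 39 of 82 estimates lay above 0, and on the log2(TPM + 1) scale it became -0.042 with 18 above 0. Medians over all genes then stood at -0.12 and -0.11.

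The 4 genes that rose encode large catalytic or core subunits, 1 from each of 4 complexes. On the log2(TPM + 1) scale none of the 4 passed (limma), and the estimates were -0.015 for *Uqcrc2*, -0.051 for *Atp5a1*, 0.0093 for *Sdha* and 0.0060 for *Ndufv1*. The median over all genes on that scale was -0.107. *Uqcrc2*, core protein of complex III, is on chromosome 7 from 120635176 to 120659524 on the plus strand. Its CPM was 235, 225, 235, 222, 212 and 222 in vehicle mice 1 to 6 and 246, 238, 266, 247, 248 and 251 in SK-124 mice 1 to 6. All SK-124 mice were above all vehicle mice (log2 fold change 0.14, standard error 0.05, FDR = 0.0322, edgeR; exact permutation p = 0.00216, two-sided, which is the lowest value 6 against 6 mice can give).

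*Atp5a1*, the alpha subunit of ATP synthase, is on chromosome 18 from 77773729 to 77782869 on the plus strand. In vehicle mice it ranged from 925 to 981 CPM (950 ± 21.9, SD, n = 6) and in SK-124 mice from 1010 to 1072 CPM (1040 ± 26.6). The groups did not overlap (log2 fold change 0.13, standard error 0.05, FDR = 0.0495, edgeR; exact permutation p = 0.00216). *Uqcrc2* and *Atp5a1* were the only 2 of the 82 whose groups were apart, against 13.0% of all genes tested.

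*Sdha*, the flavoprotein of complex II that binds succinate, is on chromosome 13 from 74322254 to 74350280 on the minus strand. Its CPM was 313, 299, 274, 306, 278 and 302 in vehicle mice 1 to 6 and 307, 331, 329, 323, 334 and 335 in SK-124 mice 1 to 6. The lowest SK-124 mouse lay below the highest vehicle mouse (log2 fold change 0.14, standard error 0.05, FDR = 0.0416, edgeR). *Ndufv1*, the complex I subunit that oxidizes NADH, is on chromosome 19 from 4007384 to 4012806 on the minus strand. It ranged from 85.4 to 92.8 CPM in vehicle mice and from 92.3 to 103 CPM in SK-124 mice, with SK-124 mice 1 and 2 inside the vehicle range (log2 fold change 0.14, standard error 0.05, FDR = 0.0421, edgeR). These increases of about 10% (*Uqcrc2* 10.5%, *Sdha* 10.5%, *Ndufv1* 10.1%, *Atp5a1* 9.55%) rest on the whole set of mice. With vehicle mouse 4, 5 or 6 or SK-124 mouse 3 or 6 left out, no subunit gene passed as higher (edgeR, with 10, 7, 9, 6 and 10 at an unadjusted p under 0.05). With vehicle mouse 2 left out 1 passed, *Ndufb6*, and none of these 4 did. With SK-124 mouse 4 or 5 left out 1 passed, *Uqcrc2*, and without SK-124 mouse 2 it was 7, among them *Uqcrc2*, *Atp5a1* and *Ndufv1*. *Sdha* missed the threshold without vehicle mouse 3 (FDR = 0.0507, edgeR). *Atp5a1* missed it without vehicle mouse 1 (FDR = 0.0562, edgeR) or SK-124 mouse 1 (FDR = 0.054, edgeR). Among fits with 1 mouse left out, the share of all genes passing was taken only without vehicle mouse 3. The other counts therefore lack a background.

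*Ndufa4l2* (ENSMUSG00000040280.10), the only subunit gene that fell, is on chromosome 10 from 127514967 to 127517154 on the plus strand, where *Shmt2* overlaps it on the other strand. Its CPM was 2.67, 3.37, 4.55, 3.28, 3.98 and 3.18 in vehicle mice 1 to 6 and 2.37, 1.70, 2.24, 2.23, 1.70 and 3.09 in SK-124 mice 1 to 6. SK-124 mouse 6 overlapped the vehicle range and the other 5 were below it. The mean was 1.57-fold lower (log2 fold change -0.65, 95% interval -0.99 to -0.31, FDR = 0.00657, edgeR; two-sided exact permutation test p = 0.00433). It remained past the threshold with any 1 mouse left out, but not with SK-124 mice 4 to 6 alone (FDR = 0.0774, edgeR) or on the log2(TPM + 1) scale (FDR = 0.0717, limma). *Ndufa4l2* is also expressed by the mural cells of vessels, for which no marker list was set. Of the 4 endothelial markers 1 (25%), *Kdr*, was lower and none was higher, against 24.4% of all genes tested in either direction. The estimates of the 4 ran from -0.85 to 0.29, with 2 above 0. They summed to between 120 and 173 CPM in vehicle mice and 99.8 and 173 CPM in SK-124 mice. The part of vessel cells in the *Ndufa4l2* values was not tested.

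**Figure D2:**
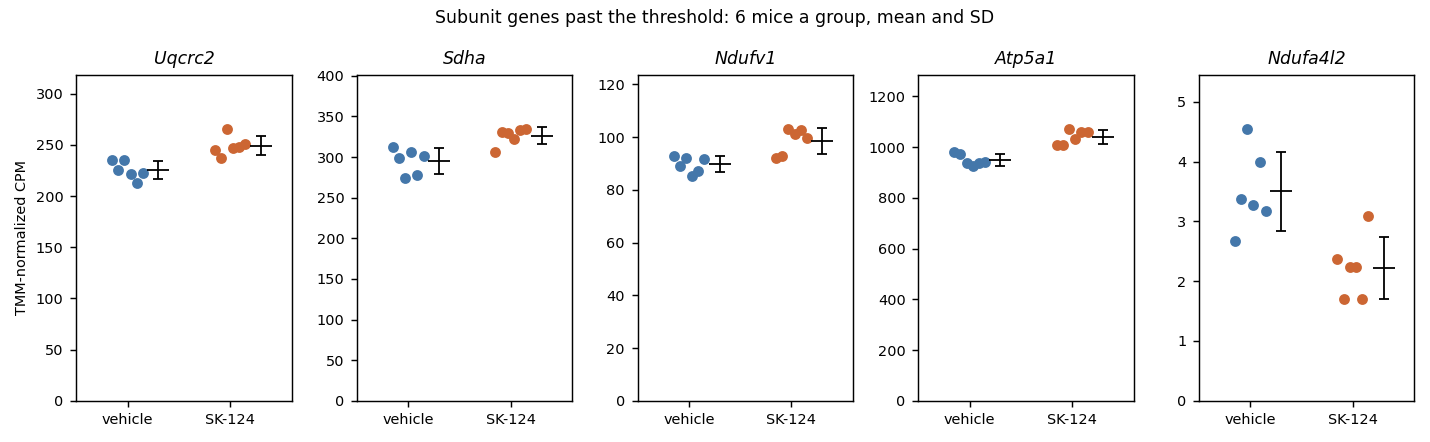
TMM-normalized CPM of the 5 subunit genes with an FDR under 0.05; points are single mice and bars give the mean and SD of 6. *Uqcrc2* and *Atp5a1* do not overlap between groups, and *Ndufa4l2*, near 3.50 CPM in vehicle mice, overlaps in 1 SK-124 mouse.

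No other subunit gene passed. Complex IV had the largest estimates and no call: its 14 tested genes, assigned by symbol, had a median log2 fold change of 0.16, all above 0. *Cox6c*, a small membrane subunit, had the largest estimate of all, 0.25 with a 95% interval from -0.02 to 0.52 (FDR = 0.170, edgeR). In vehicle mice 1 to 6 its CPM was 200, 118, 243, 175, 172 and 185, and in SK-124 mice 1 to 6 it was 194, 178, 254, 237, 215 and 223. Vehicle mouse 2 was the lowest and vehicle mouse 3 lay above all but 1 of the SK-124 mice. *Ndufb6*, an accessory subunit of complex I, had an estimate of 0.19 (0.04 to 0.34, FDR = 0.0566, edgeR) and *Cox7c*, a small subunit of complex IV, 0.19 (0.03 to 0.35, FDR = 0.0866, edgeR). The ranges of both overlapped between the groups: *Ndufb6* spanned 22.2 to 26.6 CPM in vehicle mice and 23.6 to 30.9 CPM in SK-124 mice, and *Cox7c* 123 to 158 and 128 to 171 CPM.

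At the other end, *Atp5s* had an estimate of -0.10 (-0.32 to 0.13) and *Sdhd* one of 0.01 (-0.09 to 0.11), so that a change of *Sdhd* by more than about 0.11 on the log2 scale in either direction lay outside its interval. Over the 77 genes with a mean over 20 CPM, 95% intervals reached from -0.20 to 0.52. The medians by complex were 0.08 for complex I (2 of 37 called, 1 in each direction), 0.10 for complex II (1 of 4), 0.10 for complex III (1 of 9), 0.10 for ATP synthase (1 of 17) and 0.16 for complex IV (0 of 14), and the estimate for *Cycs* was 0.16 (FDR = 0.111, edgeR).

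**Figure D3:**
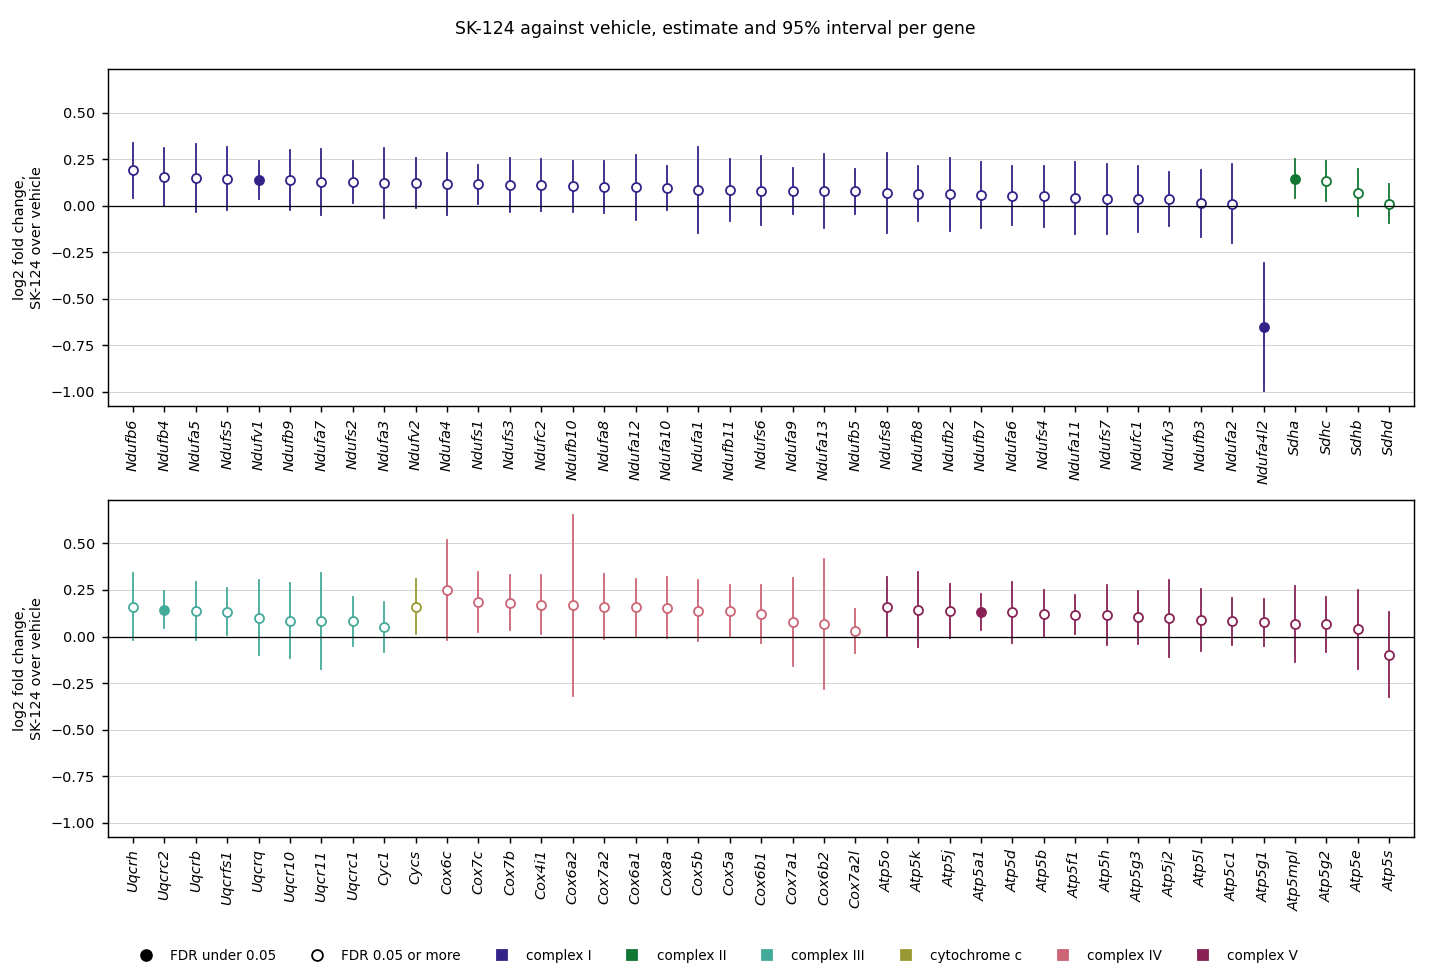
Estimated log2 fold change, SK-124 over vehicle, with its 95% interval for each tested subunit gene, ordered within each complex; filled points have an FDR under 0.05. All estimates but those of *Ndufa4l2* (-0.65) and *Atp5s* (-0.10) lie between 0.01 and 0.25 with TMM scaling, whereas with library totals 39 of 82 lie above 0.

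The summed CPM of all 87 genes showed where the mice stood. In vehicle mice 1 to 6 it was 11980, 11330, 13510, 11370, 11050 and 11360, and in SK-124 mice 1 to 6 it was 11900, 11540, 13770, 12870, 13330 and 13220. Vehicle mouse 3 stood far above the other vehicle mice, and SK-124 mice 1 and 2 stood among them. Vehicle mouse 3 was the highest of its group for 67 of the 77 genes over 20 CPM, SK-124 mouse 3 was the highest of its group for 50, and SK-124 mouse 2 was the lowest for 60. The median coefficient of variation of these genes was 10.5% over the vehicle mice and 4.33% without vehicle mouse 3. Without that mouse 34 subunit genes passed as higher and 1 as lower, while the share of all genes passing as higher was 13.1%. With both mice numbered 3 left out, a choice made after seeing the data, 10 of 82 passed as higher and 1 as lower, and the share of all genes passing as higher was 11.1%.

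Levels in vehicle mouse 3 went with transcript length, and those in the other mice did so less. Most subunit mRNAs are short: the tested ones had a median effective length of 503 bases, against 2201 bases over all genes tested. In vehicle mouse 3 the subunit genes under 350 bases stood at 1.29 times, those of 350 to 600 bases at 1.21 times and those of 600 bases or more at 1.11 times their vehicle mean (medians of 19, 29 and 29 genes). Other short genes did likewise in that mouse, at 1.29 times under 350 bases, 1.22 times from 350 to 600 bases and 1.16 times from 600 to 1000 bases. Other genes of 2000 bases or more stood at 0.920 times. The longest class of subunit genes has no upper limit, so it is not matched in length to the other genes of 600 to 1000 bases. SK-124 mouse 3 had 1.21, 1.18 and 1.15 times for the subunit genes and 1.19, 1.14 and 1.11 times for the others. SK-124 mice 4 to 6 had 1.12 to 1.18 times for the shortest subunit genes and 1.10 to 1.11 times for other genes of that length. Their subunit genes of 600 bases or more were nearly as high, at 1.10 to 1.11 times, and other genes of 600 to 1000 bases stood at 1.05 to 1.06 times. SK-124 mice 1 and 2 had 0.998 and 0.921 times for the shortest subunit genes and 1.0 and 0.940 times for other genes of that length.

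**Figure D4:**
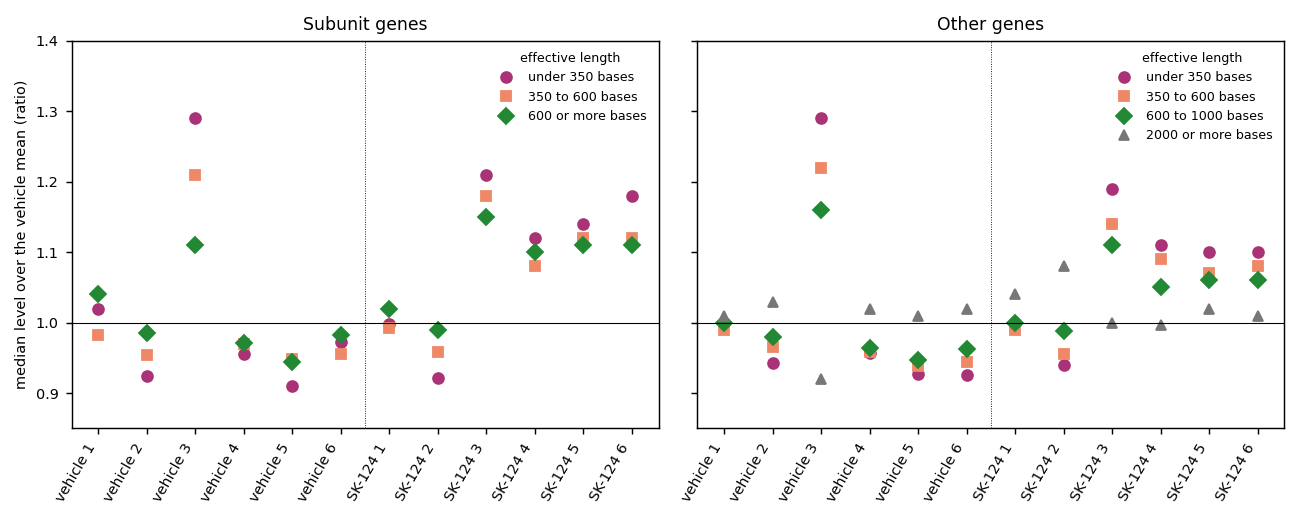
Median level relative to the vehicle mean in each mouse, by effective length, for subunit genes (left) and for other genes over 20 CPM (right). Vehicle mouse 3 reaches 1.29 for genes under 350 bases in both panels, and SK-124 mice 3 to 6 lie above 1 for short genes in both.

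Of 2151 other tested genes under 1000 bases 10.9% passed the threshold, with a median log2 fold change of 0.03, against 26.9% of those of 1000 bases or more. Among subunit genes 2 of 67 under 1000 bases passed (2.99%) and 3 of 15 of 1000 bases or more (20%). With an offset for transcript length in the fit, 15 subunit genes passed as higher and 1 as lower, the background for higher was 15.0%, and the median was 0.08. The SK-124 mice also fell into sets by mitochondrial reads: the mitochondrial genome took 32.4% of counts in each of SK-124 mice 1 and 2, 29.4% in mouse 3 and from 25.8% to 27.6% in mice 4 to 6, against 27.7% to 29.9% in vehicle mice. With SK-124 mice 1 to 3 alone, no subunit gene passed as higher (edgeR, 2 at an unadjusted p under 0.05) and 1 passed as lower. With mice 4 to 6 alone 5 passed as higher and none as lower (1 at an unadjusted p under 0.05), and the background for higher was 8.06%. No background was taken for mice 1 to 3, so the counts of the 2 subsets cannot be compared. The split also does not follow mitochondrial reads, since mouse 3, at 29.4%, lay within the vehicle range. No label names a batch, so the part of these features in the subunit values was not tested beyond these settings.

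The mitochondrial genome encodes 13 subunits of the same enzymes, and none of them passed the threshold (edgeR, 3 at an unadjusted p under 0.05; 1 with DESeq2 and 0 with limma; estimates 0.06 to 0.60, median 0.19). Assembly factors help build the complexes without remaining in them. Of 14 for complex I, 1 fell: *Tmem126b* (log2 fold change -0.27, FDR = 0.0126, edgeR), from 17.1 ± 1.76 to 14.2 ± 0.915 CPM. Of 6 for complex III, 1 rose: *Ttc19* (0.19, FDR = 0.0357, edgeR, and -0.033 on the log2(TPM + 1) scale), from 10.2 ± 0.499 to 11.7 ± 0.709 CPM. It did not pass with DESeq2 (FDR = 0.0508, DESeq2). These calls are 7.14% and 16.7% of the 2 lists, against 24.4% of all genes tested. None of 4 for complex II, 19 for complex IV or 3 for ATP synthase passed (edgeR, with 2, 1 and 0 at an unadjusted p under 0.05; DESeq2 also called none, and limma on log2(TPM + 1) called 1, 1 and 0 as lower).

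Of 13 genes for enzymes of the tricarboxylic acid cycle outside complex II, which make the NADH and succinate that the chain oxidizes, 4 rose and none fell, against 10.8% of all genes as higher and 13.5% as lower. With DESeq2 8 rose, and with limma on log2(TPM + 1) 1 rose and *Idh3b* had an estimate of -0.016. *Fh1*, fumarase, the enzyme after succinate dehydrogenase, had the largest increase: 84.4, 83.0, 84.7, 77.3, 75.3 and 78.9 CPM in vehicle mice 1 to 6 and 102, 116, 129, 114, 115 and 127 CPM in SK-124 mice 1 to 6. The groups did not overlap (log2 fold change 0.54, standard error 0.06, FDR = 3.12e-06, edgeR). The others were *Sucla2* (0.16), a subunit of succinyl-CoA synthetase, *Mdh2* (0.17), mitochondrial malate dehydrogenase, and *Idh3b* (0.17), a subunit of isocitrate dehydrogenase. Of 14 genes for other routes of electron entry and for ubiquinone synthesis 2 rose (14.3%, near the share of all genes): *Gpd2*, the glycerol phosphate dehydrogenase of the inner membrane (0.35, FDR = 6.47e-04, edgeR), and *Etfdh*, which passes electrons from fatty acid oxidation to ubiquinone (0.16). With limma on log2(TPM + 1) 0 of the 14 rose and 1 fell. The estimates there were 0.17 for *Gpd2* (FDR = 0.243, limma) and 0.016 for *Etfdh* (FDR = 0.929, limma). Of 6 tested carriers and porins 1 rose, the ADP/ATP carrier *Slc25a5* (0.13, FDR = 0.0483, edgeR; -0.019 on the log2(TPM + 1) scale).

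Among 16 regulators of these genes, 4 passed the threshold, 2 in each direction (12.5% each), a share near that of all genes tested (10.8% as higher and 13.5% as lower). In all 4 the groups did not overlap, as in 13.0% of all genes tested. *Ppargc1a* was 74.2, 74.98, 54.5, 75.9, 80.6 and 82.3 CPM in vehicle mice 1 to 6 and 122, 128, 109, 121, 102 and 116 CPM in SK-124 mice 1 to 6, an increase of 1.58-fold (log2 fold change 0.66, standard error 0.09, FDR = 2.08e-05, edgeR). *Esrrb*, which encodes estrogen-related receptor beta, rose from 22.0 ± 1.56 to 48.8 ± 4.15 CPM (1.15, standard error 0.07, FDR = 1.21e-09, edgeR). *Ppargc1b*, which encodes PGC-1beta, fell from 7.81 ± 0.465 to 4.37 ± 0.506 CPM (-0.84, standard error 0.09, FDR = 1.82e-06, edgeR). *Esrra*, which encodes estrogen-related receptor alpha, fell from 55.2 ± 4.48 to 39.3 ± 1.93 CPM (-0.49, standard error 0.06, FDR = 1.12e-05, edgeR).

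All 4 kept their direction and their FDR under 0.05 in each of the 28 other settings run. The other 12 regulators did not pass. *Nrf1* had an estimate of -0.14 (FDR = 0.172, edgeR), *Gabpa* -0.04, *Yy1* 0.02, *Esrrg* 0.17 (FDR = 0.152, edgeR) and *Tfam*, the mitochondrial transcription factor, 0.05. Among cell type markers, none of 9 proximal tubule genes passed (edgeR, 0 at an unadjusted p under 0.05; 0 with DESeq2, and 2 as lower with limma on log2(TPM + 1)). Of 4 thick ascending limb genes 1, *Cldn16*, was higher, and of 6 collecting duct genes 2 were higher and 1 lower. These are 25% and 50% of 2 short lists, against 24.4% of all genes tested. The collecting duct estimates ran from -0.59 to 0.75, with 4 of 6 above 0. Of 4 podocyte genes 1 was higher (with limma on log2(TPM + 1), 0 higher and 1 lower), and of 4 tested immune genes 1 was lower. The thick limb estimates ran from -0.12 to 0.50, with 3 of 4 above 0. With limma on log2(TPM + 1) 0 thick limb genes were higher and 1 was lower, and 1 collecting duct gene was higher and 1 lower. The summed thick limb markers spanned 2310 to 3277 CPM in vehicle mice and 2850 to 3473 CPM in SK-124 mice, and their part in the subunit values was not tested.

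**Figure D5:**
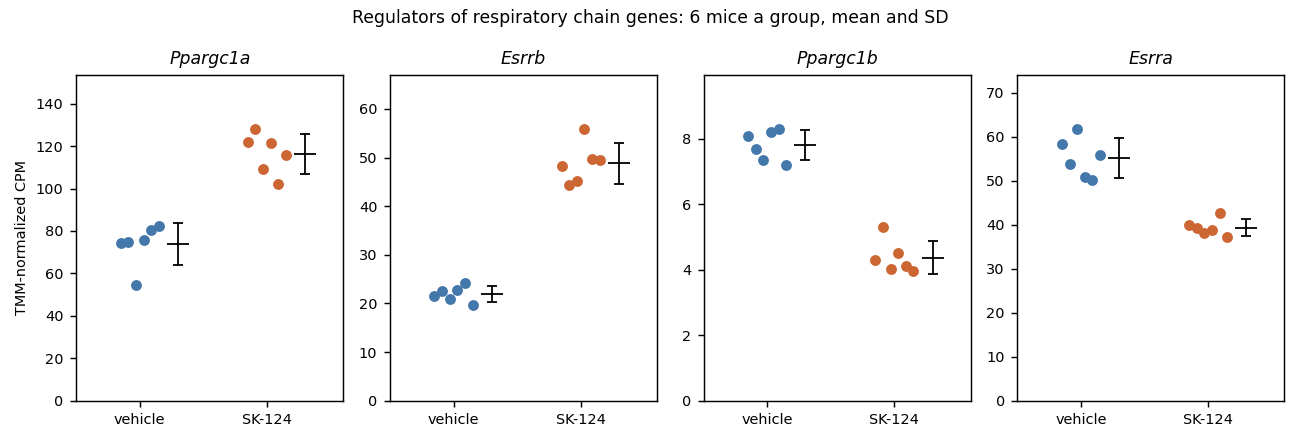
TMM-normalized CPM of the 4 regulators with an FDR under 0.05; points are single mice and bars give the mean and SD of 6. *Ppargc1a* and *Esrrb* are higher and *Ppargc1b* and *Esrra* lower in all SK-124 mice than in any vehicle mouse.

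The promoters show which of these regulators' letters the subunit genes hold. RefSeq's promoters on GRCm38.p6, from 250 bases before to 50 after the start of transcription, were matched for 67 of the 86 symbols, with 72 entries, and were searched on both strands for GCATGCGC (the core of the NRF1 site), CCGGAAG (the ETS site used by GABP), TCAAGGTCA (estrogen-related receptors), AAGATGGC (YY1) and TGACGTCA (the cAMP response element bound by CREB). The CREB letters read the same on both strands, and the longer NRF1 palindrome counts once although it holds the core on both. At least 1 of the 5 was found in 47.2% of the subunit promoters and in 15.0% of all 32851. By motif the shares were 15.3% and 2.71% for NRF1, 22.2% and 8.86% for ETS, 2.78% and 0.423% for the estrogen-related receptors, 12.5% and 2.75% for YY1 and 6.94% and 1.79% for CREB. The 32851 promoters were not matched to the subunit promoters in base composition or in expression. Whether the higher shares are particular to subunit genes was therefore not tested. A match is a description of the letters and not evidence of binding.

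The sites for NRF1, the estrogen-related receptors and CREB are shown because the first is the classic site of respiratory chain promoters, *Esrra* and *Esrrb* moved in opposite directions, and CREB coactivators are substrates of the kinases that SK-124 inhibits. Each line gives 30 bases in the direction of the gene, 5′ to 3′, with the motif in capitals. The NRF1 core was found in 11 promoters; 1 is shown for each enzyme and for cytochrome c, at chr17:56717693-56717722 (plus strand) for *Ndufa11*, chr4:140961206-140961235 (plus) for *Sdhb*, chr9:108936668-108936697 (plus) for *Uqcrc1*, chr6:50566611-50566640 (minus) for *Cycs*, chr5:115349100-115349129 (minus) for *Cox6a1* and chr15:102671069-102671098 (minus) for *Atp5g2*.
Ndufa11: ctgcactgcgcGCATGCGCgcacgccttgt
Sdhb: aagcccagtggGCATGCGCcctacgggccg
Uqcrc1: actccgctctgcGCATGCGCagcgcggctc
Cycs: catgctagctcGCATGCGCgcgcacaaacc
Cox6a1: aggaacggggcGCATGCGCgctctcgctcc
Atp5g2: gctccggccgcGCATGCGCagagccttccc
The estrogen-related receptor sites, both on the reverse strand and so reading TGACCTTGA, lay at chr2:73911359-73911388 (minus) for *Atp5g3*, 52 bases before the start, and chr9:50603800-50603829 (minus) for *Sdhd*, 37 bases after it.
Atp5g3: tgttacaaagTGACCTTGAgcgtcttcccc
Sdhd: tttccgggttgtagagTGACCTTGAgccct
The CREB sites lay at chr1:92473807-92473836 (minus) for *Ndufa10*, chr6:39592540-39592569 (plus) for *Ndufb2*, chr6:50566720-50566749 (minus) for *Cycs*, chr13:30545327-30545356 (minus) for *Uqcrfs1*, the iron-sulfur protein of complex III, and chr17:56717593-56717622 (plus) for *Ndufa11*.
Ndufa10: acactcagtggTGACGTCAtggcagcgcgc
Ndufb2: gtgcgacgcagTGACGTCAcgggccgggac
Cycs: aggccagagggTGACGTCAcgcacgtccac
Uqcrfs1: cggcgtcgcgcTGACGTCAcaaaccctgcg
Ndufa11: tttacctttccTGACGTCAcgggcgtctct

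None of the genes with a match to the NRF1, estrogen-related receptor or CREB letters passed the threshold in the comparison. Only 6.1% of the 82 tested subunit genes passed in either direction, so the absence of a call does not set these few genes apart. Promoters were searched for only 67 of the 86 symbols. The 5 with a CREB site had log2 fold changes of 0.09 (*Ndufa10*), 0.06 (*Ndufb2*), 0.16 (*Cycs*), 0.13 (*Uqcrfs1*) and 0.04 (*Ndufa11*), and the 2 with an estrogen-related receptor site 0.10 (*Atp5g3*) and 0.01 (*Sdhd*). The 11 with an NRF1 core ranged from 0.04 (*Ndufa11*) to 0.16 (*Cycs*). *Cycs* and *Ndufa11* hold both a CREB and an NRF1 match, at 169 and 60 bases before the start in *Cycs* and at 158 and 58 in *Ndufa11*. Of the 9 matches to the YY1 letters 8 lay downstream of the start, with their first base at positions 23 to 39, all in the same orientation.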

How the data were processed

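Whole-kidney RNA-Seq of 6 vehicle and 6 SK-124 mice was analysed. The submitters' processing notes name FastQC, STAR 2.7.2b, RSEM 1.3.0, DESeq2 and mm10; their use of strand is not given in the sources used here. The authors deposited RSEM gene tables with expected counts (not normalized), TPM and FPKM (scaled for effective length and library total), transcript lengths, and posterior means and SDs of the counts. The posterior means were not used.

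Expected counts were rounded, filtered with filterByExpr, scaled with TMM and tested with edgeR 4.0.16 (quasi-likelihood, no replicate block) in R 4.3.3, over all 14159 genes that passed; the threshold was an FDR of 0.05. Single genes were also compared by an exact permutation test (two-sided) of log2(CPM + 0.5). DESeq2 1.42.0 and limma 3.58.1 served as alternatives, and Python 3.11.15 made the tables. The fitting code was tested on simulated data. Names and coordinates are those of GENCODE M21, which matched all 87 subunit genes with their version. Overlapping genes on the opposite strand cannot be told apart if the counting ignored strand.

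The genes and gene lists were chosen with earlier results of these data known. The genes named are those past the threshold, the 3 largest and 3 smallest estimates, the 2 highest by TPM in each complex, tissue isoforms, subunit c genes, untested genes, and up to 4 called genes per list; *Cox6b1*, *Atp5d* and genes with printed promoter sites were added after their values were seen. Mice of one group differed beyond counting noise (smallest chi-square per degree of freedom over 30 pairs 4.69). Same-numbered mice were not paired: 2 of 6 pairs had a correlation of deviations over 0.1. Nothing says how mice were handled beyond the injection, so p-values measure the spread between these mice. Alternatives were other scalings (RLE, library totals, TMM without mitochondrial genes), robust dispersion, filters (none, or 10 counts or more in each mouse), counts left unrounded, a replicate block, log2(TPM + 1) and log2(TPM + 0.1), a length offset, subsets of SK-124 mice, leaving out each mouse, and FPKM for levels.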

Additional observations from a re-analysis of the deposited data

Results flagged for a closer look

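A sample was picked out where its gap to the nearest mouse of its group exceeded the 95% critical value of Dixon's test for 6 values, which chance gives in about 1 of 20 groups. Of 66 values examined 7 were flagged, where about 3 are expected by chance. Vehicle mouse 3 stood apart as the highest vehicle mouse for *Cox6a1* (482 CPM, the others 390 to 403), *Cox8a* (552 CPM), *Cox7c* (158 CPM) and *Atp5g1* (167 CPM), and as the lowest for *Ppargc1a* (54.5 CPM). *Cox8b* stood apart in vehicle mouse 6 (1.75 CPM) and in SK-124 mouse 3 (1.85 CPM), the 2 mice that were also highest for *Ucp1*.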

How the results depend on the processing

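The count of subunit genes passing as higher, 4, was the least stable result. It became 10 with DESeq2 (where 12.2% of all genes passed as higher), 15 with a length offset, 13 with the length offset and replicate block together, 5 with SK-124 mice 4 to 6 alone, and 10 with the number 3 mice left out (chosen after seeing the data). It became 0 with library totals only, without a filter on low counts, with SK-124 mice 1 to 3 alone, and with limma on log2(TPM + 1) or log2(TPM + 0.1). At an unadjusted p under 0.05 these held 0, 19, 2, 0 and 0 higher genes, against 17 in the reported fit. Leaving out each mouse gave 0 to 34, with the share of all genes taken only for the fit without vehicle mouse 3. The replicate block also gave 4 higher and 1 lower, but only 2 of the 5 reported genes were among them; 2 of 6 mice correlated best with their own number. The count passing as lower, 1, became 0 on both TPM scales and 0 with SK-124 mice 4 to 6 alone, and was 1 in every leave-one-out fit. The median, 0.10, became -0.042 with log2(TPM + 1) and -0.043 with log2(TPM + 0.1), and ranged from 0.078 to 0.158 with each mouse left out; it exceeded the median of all genes in all 28 alternatives, by 0.065 to 0.161. On the TPM scales estimates changed sign for *Atp5a1* (-0.051 on both), *Uqcrc2* (-0.015 on both), *Sdhd* (-0.139 and -0.141), *Ttc19* (-0.033 and -0.038), *Idh3b* (-0.0155 and -0.0157) and *Slc25a5* (-0.019 and -0.020). The medians over all genes on these 2 scales were -0.107 and -0.144. Except for *Sdhd* on log2(TPM + 1), each of these estimates lay above the median of its scale. *Sdhd* did so too with library totals (-0.099), SK-124 mice 1 to 3 alone (-0.040), and without vehicle mouse 5 or SK-124 mouse 5 or 6; with each mouse left out it ranged from -0.0105 to 0.030. The cause was not tested. *Fh1* and the 4 regulators kept their direction and stayed past the threshold in all alternatives. Depth was even between mice and limits chiefly the genes with few counts, such as *Cox8b*. *Atp5b* held 8.50% of the summed subunit level in TPM and in FPKM. The 2 units are proportional within a mouse, so this share could not differ and tests nothing.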

Other observations

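*Ndufb1-ps*, which the annotation lists as a noncoding RNA from a bidirectional promoter, passed the threshold as higher, from 12.3 ± 1.11 to 14.2 ± 1.17 CPM (log2 fold change 0.21, FDR = 0.0491, edgeR's quasi-likelihood test, n = 6 per group). Its estimate was larger than all but 1 of those of the protein-coding subunit genes. The pseudogene *Ndufb4c* was nearly as abundant as *Ndufb4* itself (70.4 ± 8.04 against 80.5 ± 8.52 CPM in vehicle mice) and had an estimate of 0.09 (FDR = 0.437, edgeR), and the share of its reads that came from *Ndufb4* cannot be told from these tables.

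The 3 proteins of these enzymes whose symbols fell outside the rule gave estimates of 0.06 (*Ndufab1*, the acyl carrier protein of complex I, FDR = 0.508, edgeR), 0.22 (*Usmg5*, a small ATP synthase subunit, FDR = 0.0822, edgeR) and 0.06 (*Atpif1*, the inhibitor of ATP synthase, FDR = 0.750, edgeR).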
